A study of Mus musculus with 6 samples.

Results

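Genes of the fibroblast growth factor (FGF), platelet-derived growth factor (PDGF), vascular endothelial growth factor (VEGF) and hepatocyte growth factor (HGF) families were followed in the distal colon of mice with and without the long noncoding RNA gene Gm31629 during chemical colitis. Members were chosen by gene symbol and not by their values in the table, although earlier results of these data were known. They were the numbered Fgf genes, the Fgf receptors, the Pdgf and Vegf ligands, the Pdgf receptors and Pgf, Hgf, Met, Mst1, Mst1r, Angpt1, Angpt2, Kitl and Csf1. Of 27546 genes in the table, 43 matched. Fgfr1op and Fgfr1op2 share only the start of their symbol with the Fgf receptors and were kept apart, which left 41 members. Of these, 29 reached a mean of 0.5 FPKM (fragments per kilobase of transcript, scaled to library depth) over the 6 mice and were tested, and 12 did not. Fgf3, Fgf4, Fgf6, Fgf8 and Fgf20 were not analysed here.

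The mice were C57BL/6 by their labels (C57BL/6J in the methods of the study), 8 weeks old and of 2 genotypes, Gm31629-/- (n = 3) and littermate WT (n = 3). Both groups drank 3% dextran sulfate sodium (DSS), a polymer that injures the colonic epithelium, for 7 days and were killed on day 8, so the WT controls were colitic as well and no untreated colon was in the comparison. The deletion is constitutive and removes Gm31629 from every cell type, and the level of Gm31629 itself was not analysed here. RNA-Seq of distal colon tissue gave 1 library per mouse, although the methods of the study describe the RNA as pooled from the mice of each genotype. Library depths, as recovered from the FPKM values, were 18002700 to 18792800 fragments. Library 1 of the Gm31629-/- group stood apart: the Y-linked genes Ddx3y, Eif2s3y, Kdm5d and Uty were at 9.27, 15.4, 2.49 and 2.03 FPKM there and at 0 in the other 5 libraries, in which Xist was at 8.35 to 13.8 FPKM, although the study states that male mice were used. Results are therefore also given without that mouse. With 3 mice against 3, an exact permutation test of a single gene cannot give a two-sided p below 0.1, so the p-values below are those of limma, fitted over 14657 genes and adjusted over all of them.

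Most of the ligands among the members are secreted or membrane-held signals that bind receptor tyrosine kinases on a neighbouring cell, while the Fgf13 protein stays in the cell. In the gut wall, fibroblasts, pericytes, endothelium and macrophages make many of them, and some, such as Fgf7, Fgf10 and Hgf, are known to act on the epithelium during repair. Others guide the vessels (the VEGFs and angiopoietins), the perivascular and stromal mesenchyme (the PDGFs) and the macrophages (Csf1).

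Of the 29 tested members, 16 were called higher in Gm31629-/- colon and 0 were called lower, where a call required a change of more than 1 in either direction on the log2(FPKM + 1) scale with an adjusted p under 0.05. Over all tested genes, 18.4% were called higher and 4.64% lower by the same rule. The median log2 fold change was 1.17 over the tested members (range -0.69 to 3.12) and 0.15 over all tested genes. All 3 Gm31629-/- mice lay above all 3 WT mice for 22 members, against 36.3% of all tested genes, and below them for 1 member, Fgfr3, against 21.5%. Members entered by their mean over the 6 mice, so a gene near 0 in WT mice was tested only where Gm31629-/- mice were high. Called members with a WT mean under 0.5 FPKM were Fgf2, Fgf7, Fgf10, Fgf13, Fgfr1, Hgf, Pdgfd, Pgf, Vegfd and Angpt2. The same filter was set for all tested genes. Without the filter, 15 of 41 members were called higher and 0 lower, beside 2537 and 620 of all 27546 genes. The median log2 fold change of the 41 members was then 0.73, against 0.06 for all genes. The direction depended on what the libraries were scaled to: after rescaling to 11 fibroblast markers, which were much higher in Gm31629-/- colon, the median of all tested genes moved to -2.95, the median of the members to -1.16, and 0 members were called higher and 16 lower. Under that scaling, 148 of all 14657 tested genes were called higher and 12164 lower. After rescaling to 15 epithelial markers, 21 members were called higher and 0 lower, beside 4635 and 236 of all tested genes. Every direction given below is on the FPKM scale. Without Gm31629-/- mouse 1, 15 members were called higher and 0 lower, beside 2705 and 766 of all tested genes.

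**Figure D1:**
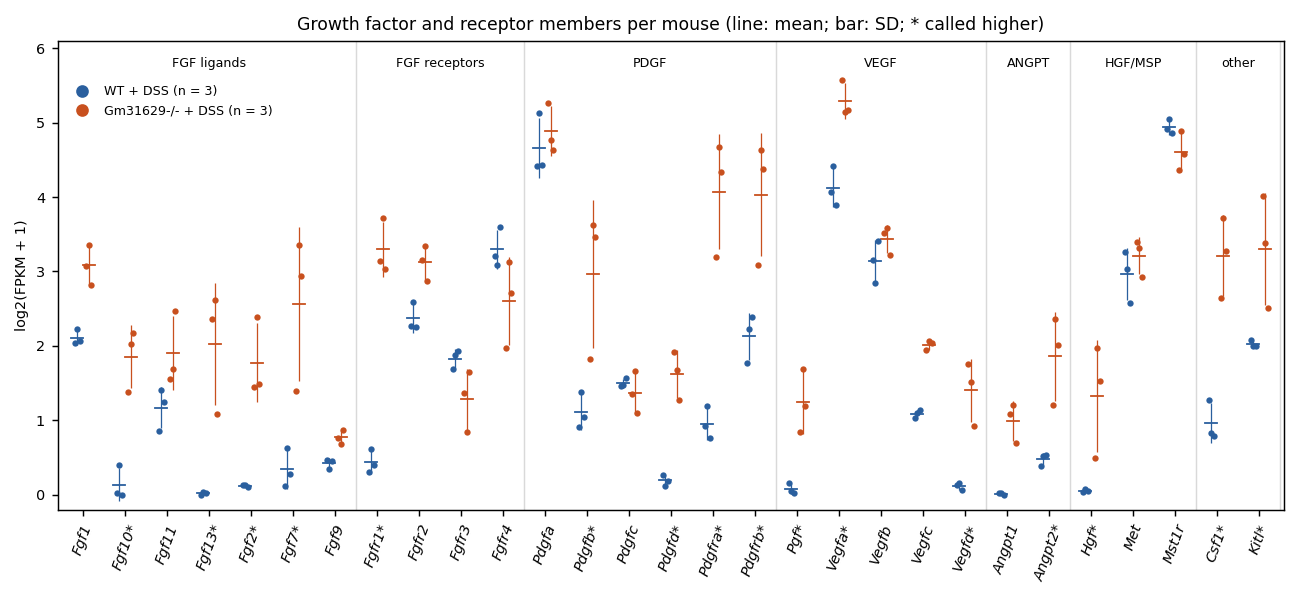
Levels of the 29 tested members in each mouse as log2(FPKM + 1), grouped by family, with WT mice in blue and Gm31629-/- mice in orange (n = 3 each). Lines are means and bars SD on that scale, and an asterisk marks the 16 members called higher. On this FPKM scale the groups overlapped for 6 members, Fgfr4, Met, Mst1r, Pdgfa, Pdgfc and Vegfb.

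Markers of the cell types of the colon wall differed between the groups in the same libraries. The summed level of 12 fibroblast markers was 297 to 863 FPKM in Gm31629-/- mice and 28.6 to 52.2 FPKM in WT mice, and 12 of 12 were called higher. For 12 blood endothelial markers the sums were 127 to 350 and 10.2 to 24.0 FPKM (12 of 12 called higher), and for 12 smooth muscle markers 1483 to 2425 and 36.6 to 56.2 FPKM (11 of 12). Sums of 15 epithelial markers were 8369 to 9867 FPKM in Gm31629-/- mice and 13300 to 14590 FPKM in WT mice. Of these markers, 0 were called higher and 4 lower, with a median log2 fold change of -0.50 (range -3.135 to 0.513). For 10 of them all 3 Gm31629-/- mice lay below all 3 WT mice, against 21.5% of all tested genes. Epcam, at 0.01, was 1 of 2 with a positive log2 fold change. The tissue label therefore held in both groups, with epithelial genes abundant in each. In bulk tissue, a change in the number of cells of a type and a change in RNA per cell cannot be told apart, and the part of these markers in the results below was not tested.

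The sequences upstream of 3 members with different roles are shown because these members rose in the same tissue: Pdgfra, which had the largest log2 fold change, Csf1, a ligand for macrophages, and Vegfa, the ligand with the highest mean level in Gm31629-/- colon. They were chosen after their values were seen. Each run holds the 250 bases before the RefSeq start site on GRCm38.p6, written 5′ to 3′ along the gene, with motif matches in capitals. They lie at chr5:75152001-75152250 (Pdgfra, plus strand), chr3:107760470-107760719 (Csf1, minus strand) and chr17:46032378-46032627 (Vegfa, minus strand).
Pdgfra: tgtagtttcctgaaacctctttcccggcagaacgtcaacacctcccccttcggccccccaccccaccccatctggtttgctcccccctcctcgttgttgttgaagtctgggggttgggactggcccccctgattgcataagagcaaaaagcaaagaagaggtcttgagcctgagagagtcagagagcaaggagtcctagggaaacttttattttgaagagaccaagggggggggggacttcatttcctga
Csf1: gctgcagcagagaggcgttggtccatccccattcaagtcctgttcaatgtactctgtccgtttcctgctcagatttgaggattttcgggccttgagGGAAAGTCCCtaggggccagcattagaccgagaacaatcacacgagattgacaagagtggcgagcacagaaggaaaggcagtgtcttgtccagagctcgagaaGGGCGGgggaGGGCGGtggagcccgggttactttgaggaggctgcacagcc
Vegfa: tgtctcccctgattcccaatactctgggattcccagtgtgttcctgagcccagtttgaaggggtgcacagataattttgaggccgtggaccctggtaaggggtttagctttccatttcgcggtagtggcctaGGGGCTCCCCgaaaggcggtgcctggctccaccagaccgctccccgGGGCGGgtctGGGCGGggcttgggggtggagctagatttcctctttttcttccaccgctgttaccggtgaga

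The motifs searched on both strands were GGGCGG, the GC box, then TATAAA, which fixes the start in many promoters, and TGANTCA, which binds AP-1. The core of hypoxia response elements, ACGTG, was searched too, as were a CArG box and an NF-kB site. Csf1 held GC boxes at positions -51 and -41 from the start site and an NF-kB match on the minus strand at -154. Vegfa held GC boxes at -72 and -62 and an NF-kB match at -118. No search motif overlapped another in these windows, and the Pdgfra window held none. Among 32851 promoters of the same length in the RefSeq table, 32.7% held the GC box, 12.4% the TATA box, 6.75% the AP-1 site, 16.6% the hypoxia core, 1.47% the CArG box and 3.90% the NF-kB site. The table held a promoter for 32 of the 43 matched genes. These matches describe letters in a window and not binding.

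The largest log2 fold change of any member was that of Pdgfra, the receptor of PDGF-A and PDGF-C that marks fibroblasts of the gut wall (chr5:75152292-75198215, GRCm38, plus strand). Pdgfra was at 8.19, 24.5 and 19.3 FPKM in Gm31629-/- mice 1 to 3 and at 0.890, 1.27 and 0.695 FPKM in WT mice 1 to 3. The groups did not overlap, and the lowest Gm31629-/- mouse was several times the highest WT mouse. The mean level was 18.2-fold higher in Gm31629-/- colon (17.3 ± 8.33 against 0.953 ± 0.295 FPKM, SD, n = 3), with a log2 fold change of 3.12 ± 0.37 (SE, limma adjusted p = 0.00108). After scaling to the fibroblast markers the log2 fold change was -0.07, against a median of -2.95 for all genes. Pdgfrb, the receptor of PDGF-B on pericytes and other mural cells, was at 7.49, 23.8 and 19.8 FPKM in Gm31629-/- mice and 2.41, 3.66 and 4.24 FPKM in WT mice. It was 4.96-fold higher by mean level (log2 fold change 1.91 ± 0.40 SE, adjusted p = 0.00916) without overlap. Of 6 pericyte markers, 5 were tested and called higher, their summed level was 73.3 to 172 FPKM in Gm31629-/- and 0.782 to 3.31 FPKM in WT mice, and Higd1b was at 0 in all WT mice.

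The PDGF ligands divided by gene. Pdgfb, the endothelial ligand that recruits pericytes, was at 2.53, 11.3 and 10.1 FPKM in Gm31629-/- mice and 0.871, 1.60 and 1.06 FPKM in WT mice. The groups did not overlap, and Gm31629-/- mouse 1 lay much closer to the WT mice than the other two. Its mean level was 6.76-fold higher (log2 fold change 1.86 ± 0.46 SE, adjusted p = 0.0166), but the call was lost without Gm31629-/- mouse 3, WT mouse 1 or WT mouse 3, with an adjusted p of up to 0.0613. Pdgfd, a second ligand of the beta receptor, was at 2.77, 2.20 and 1.42 FPKM in Gm31629-/- mice and 0.206, 0.0880 and 0.135 FPKM in WT mice. It was 14.9-fold higher by mean level (log2 fold change 1.43 ± 0.20 SE, adjusted p = 0.00182), on 25 fragments in all over the WT libraries. Pdgfa, the most abundant PDGF ligand, was at 37.4, 26.2 and 23.8 FPKM in Gm31629-/- mice and 20.4, 34.0 and 20.6 FPKM in WT mice. The Pdgfa values overlapped, and the log2 fold change of 0.23 ± 0.25 (SE) did not pass the test (adjusted p = 0.494). Pdgfc, a further ligand of the alpha receptor, overlapped too (1.13 to 2.17 FPKM in Gm31629-/- and 1.74 to 1.97 FPKM in WT mice, log2 fold change -0.13, adjusted p = 0.607). Thus, among the PDGF genes, both receptors, Pdgfb and Pdgfd were called higher, and Pdgfa and Pdgfc were not called. Pdgfrl, a receptor-like gene, was below the filter at no more than 0.607 FPKM.

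Among the FGF receptors, Fgfr1, the form typical of mesenchymal cells, changed most (chr8:25513654-25575718, GRCm38, plus strand). Fgfr1 was at 7.80, 12.2 and 7.16 FPKM in Gm31629-/- mice and 0.241, 0.529 and 0.313 FPKM in WT mice. The groups were far apart, with a mean level 25.1-fold higher in Gm31629-/- colon (9.04 ± 2.73 against 0.361 ± 0.150 FPKM, SD, n = 3). The log2 fold change was 2.86 ± 0.22 (SE, adjusted p = 0.000294), the smallest adjusted p of any member. Fgfr2, which carries the Fgf7 and Fgf10 signal in epithelium in one splice form, was at 7.89, 9.17 and 6.31 FPKM in Gm31629-/- mice and 3.81, 5.01 and 3.77 FPKM in WT mice. The groups did not overlap and the adjusted p was 0.0163, but the log2 fold change of 0.75 ± 0.19 (SE) was under the limit for a call. Fgfr2 shares 314 exonic bases with Ctbp2 on the same strand, and FPKM values by gene do not separate its splice forms. Fgfr4 was at 2.92, 7.76 and 5.56 FPKM in Gm31629-/- mice and 8.26, 7.51 and 11.1 FPKM in WT mice, overlapping, with a log2 fold change of -0.69 ± 0.31 (SE, adjusted p = 0.106). Fgfr3 was lower in every Gm31629-/- mouse (0.787 to 2.13 against 2.21 to 2.80 FPKM), with a log2 fold change of -0.55 ± 0.23 (SE) that did not pass the test (limma adjusted p = 0.0946). It was the 1 member lower in Gm31629-/- colon by limma before adjustment at the 0.05 level, and voom on recovered fragments called 0 members lower as well.

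Of the 17 numbered Fgf genes in the table, 7 were tested, and 4 of these were called higher, Fgf13 among them. Fgf7, the keratinocyte growth factor that mesenchymal cells make for epithelium, was at 1.62, 9.19 and 6.69 FPKM in Gm31629-/- mice and 0.0832, 0.547 and 0.213 FPKM in WT mice (chr2:126034658-126091185, GRCm38, plus strand). Its mean level was 20.8-fold higher, with a log2 fold change of 2.22 ± 0.48 (SE, adjusted p = 0.00983) and no overlap, although the Gm31629-/- mice differed widely among themselves. Fgf10, the related mesenchymal ligand of the same receptor form, was at 1.59, 3.07 and 3.49 FPKM in Gm31629-/- mice and 0.0117, 0.314 and 0 FPKM in WT mice. Fgf10 was 25.1-fold higher by mean level (log2 fold change 1.72 ± 0.25 SE, adjusted p = 0.00210), and 26 of the 27 WT fragments came from WT mouse 2. Fgf2, the heparin-binding basic FGF, was at 1.72, 4.23 and 1.80 FPKM in Gm31629-/- mice and 0.0956, 0.0901 and 0.0785 FPKM in WT mice. Its WT values were tightly grouped, the mean level was 29.4-fold higher in Gm31629-/- colon, and the log2 fold change was 1.65 ± 0.27 (SE, adjusted p = 0.00330). The antisense neighbour Nudt6 shares 640 exonic bases with Fgf2 and had a mean of 0.756 FPKM in Gm31629-/- and 1.02 FPKM in WT mice.

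Fgf13, whose protein stays in the cell and binds sodium channels in neurons, was at 4.15, 5.14 and 1.12 FPKM in Gm31629-/- mice and 0, 0.0276 and 0.0132 FPKM in WT mice. The WT libraries held 3 fragments of it in all, so no fold is given, and the log2 fold change on the scale with a pseudocount of 1 was 2.004 ± 0.379 (SE, adjusted p = 0.00593). Markers of enteric neurons and glia stood at a summed 57.7 to 204 FPKM in Gm31629-/- and 2.85 to 5.43 FPKM in WT mice, with 11 of 12 called higher, and Elavl4 was at 0 in all WT mice. Fgf13 and this sum had the same order of the Gm31629-/- mice, highest in mouse 2 and lowest in mouse 3. That order was also held by 30.1% of all genes called higher and by the pericyte, adipocyte and mesothelial marker sums. Fgf1, the acidic FGF that binds all FGF receptors, was at 7.38, 9.20 and 6.08 FPKM in Gm31629-/- mice and 3.11, 3.68 and 3.19 FPKM in WT mice. It did not overlap and had an adjusted p of 0.00570, and its log2 fold change of 0.97 ± 0.18 (SE) lay just under the limit, as did Angpt1 at 0.98, whereas Pgf at 1.16 and Vegfa at 1.17 lay just above it. Fgf11 (log2 fold change 0.73, adjusted p = 0.0706) and Fgf9 (0.35, adjusted p = 0.0840) were higher in each Gm31629-/- mouse than in any WT mouse without passing the test.

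The other 10 numbered Fgf genes, Fgf5, Fgf12, Fgf14, Fgf15, Fgf16, Fgf17, Fgf18, Fgf21, Fgf22 and Fgf23, were below the filter and got no test. With Mst1 and Pdgfrl they make up the 12 low members, of which 6 were at 0 in all 3 WT mice and 9 had their highest value in Gm31629-/- mouse 2. Over the whole table, 22456 to 23600 genes were above 0 in Gm31629-/- libraries and 19938 to 20118 in WT libraries. Of all genes called higher, 63.6% were highest in mouse 2 within the Gm31629-/- group. No share over other genes below the filter was taken. The low member with the highest value was Fgf23, a hormone of phosphate balance made mainly in bone. It was at 0.120, 0.926 and 0.240 FPKM in Gm31629-/- mice and 0 in the WT mice. Since a library with a listed 0 could still hold up to 3 fragments by counting error alone, these genes are described as listed at 0 and not as absent.

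Vegfa, the main ligand for blood vessel growth, was the most abundant member in Gm31629-/- colon (chr17:46016993-46032369, GRCm38, minus strand). Vegfa was at 46.6, 34.2 and 35.1 FPKM in Gm31629-/- mice and 15.7, 20.3 and 13.9 FPKM in WT mice. The groups did not overlap, and the mean level was 2.32-fold higher in Gm31629-/- mice (38.6 ± 6.96 against 16.6 ± 3.28 FPKM, SD, n = 3; log2 fold change 1.17 ± 0.19 SE, adjusted p = 0.00363). Vegfd, a ligand of the lymphatic receptor Flt4, was at 2.37, 1.87 and 0.904 FPKM in Gm31629-/- mice and 0.0898, 0.115 and 0.0442 FPKM in WT mice. It was 20.6-fold higher by mean level (log2 fold change 1.29 ± 0.23 SE, adjusted p = 0.00468), on 11 WT fragments. Pgf, the placental growth factor that binds Flt1, was at 0.786, 2.22 and 1.29 FPKM in Gm31629-/- mice and 0.112, 0.0383 and 0.0183 FPKM in WT mice. Pgf was 25.6-fold higher by mean level (log2 fold change 1.16 ± 0.23 SE, adjusted p = 0.00688), on 9 WT fragments, and without Gm31629-/- mouse 2 its log2 fold change of 0.94 was under the limit.

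Vegfc, the second lymphatic ligand, was higher without overlap (2.84 to 3.19 FPKM in Gm31629-/- and 1.04 to 1.19 FPKM in WT mice, adjusted p = 0.00285), with a log2 fold change of 0.93 that did not reach the limit. The mean level of Vegfc was 2.71-fold higher in Gm31629-/- mice. Vegfb, a ligand of Flt1, was at 10.4, 10.9 and 8.31 FPKM in Gm31629-/- mice and 7.91, 6.19 and 9.61 FPKM in WT mice. The Vegfb values overlapped and the log2 fold change of 0.30 did not pass the test (adjusted p = 0.243). Angpt2, the endothelial angiopoietin that loosens vessel walls, was at 1.30, 4.13 and 3.04 FPKM in Gm31629-/- mice and 0.308, 0.436 and 0.447 FPKM in WT mice. It was 7.10-fold higher by mean level without overlap (log2 fold change 1.38 ± 0.29 SE, adjusted p = 0.00930). Angpt1, the opposing ligand of the Tek receptor made by mural cells, was at 0.614 to 1.30 FPKM in Gm31629-/- mice, while the WT libraries held about 2 fragments of it in all (adjusted p = 0.00484).

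Hgf, the mesenchymal ligand of the epithelial receptor Met, was at 0.408, 2.90 and 1.87 FPKM in Gm31629-/- mice and 0.0226, 0.0541 and 0.0370 FPKM in WT mice. The groups did not overlap, and the mean level was 45.6-fold higher on 15 WT fragments, the largest fold of mean levels among the members given one. Its log2 fold change was 1.27 ± 0.35 (SE, adjusted p = 0.0239), and the call was lost when any mouse but Gm31629-/- mouse 1 was left out, with an adjusted p of up to 0.0775. Hgf also shares 484 exonic bases with Gm43489 on the same strand. Met was at 9.57, 8.93 and 6.61 FPKM in Gm31629-/- mice and 8.61, 7.21 and 4.98 FPKM in WT mice. Mst1r, the receptor of the HGF-like ligand Mst1, was at 19.5, 28.6 and 22.8 FPKM in Gm31629-/- mice and 29.1, 32.2 and 27.9 FPKM in WT mice. Both receptors overlapped between the groups and did not pass the test, with log2 fold changes of 0.25 for Met (adjusted p = 0.392) and -0.33 for Mst1r (adjusted p = 0.152). Mst1 was below the filter at no more than 0.192 FPKM.

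Csf1, the growth factor of macrophages, was at 5.25, 12.2 and 8.69 FPKM in Gm31629-/- mice and 1.41, 0.778 and 0.735 FPKM in WT mice (chr3:107741048-107760469, GRCm38, minus strand). It was 8.93-fold higher by mean level without overlap (8.71 ± 3.47 against 0.975 ± 0.379 FPKM, SD, n = 3; log2 fold change 2.25 ± 0.29 SE, adjusted p = 0.00152). Kitl, the stem cell factor that mast cells and the pacemaker cells of the gut depend on, was at 15.2, 9.40 and 4.71 FPKM in Gm31629-/- mice and 3.22, 3.01 and 3.01 FPKM in WT mice. Its values did not overlap but spread widely in the Gm31629-/- group, with a mean 3.17-fold higher (log2 fold change 1.28 ± 0.35 SE, adjusted p = 0.0239). The call for Kitl was lost when any mouse but Gm31629-/- mouse 3 was left out, with an adjusted p of up to 0.0792, and when no filter on low values was used.

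Across the 6 fits that each left out 1 mouse, 12 of the 16 called members stayed called in every fit: Angpt2, Csf1, Fgf2, Fgf7, Fgf10, Fgf13, Fgfr1, Pdgfd, Pdgfra, Pdgfrb, Vegfa and Vegfd. The other 4 were Pgf, Pdgfb, Hgf and Kitl. Of the genes set apart by name, Fgfr1op had a log2 fold change of 0.82 (adjusted p = 0.00644) and Fgfr1op2 of 0.49 (adjusted p = 0.0356), and neither was called.

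**Figure D2:**
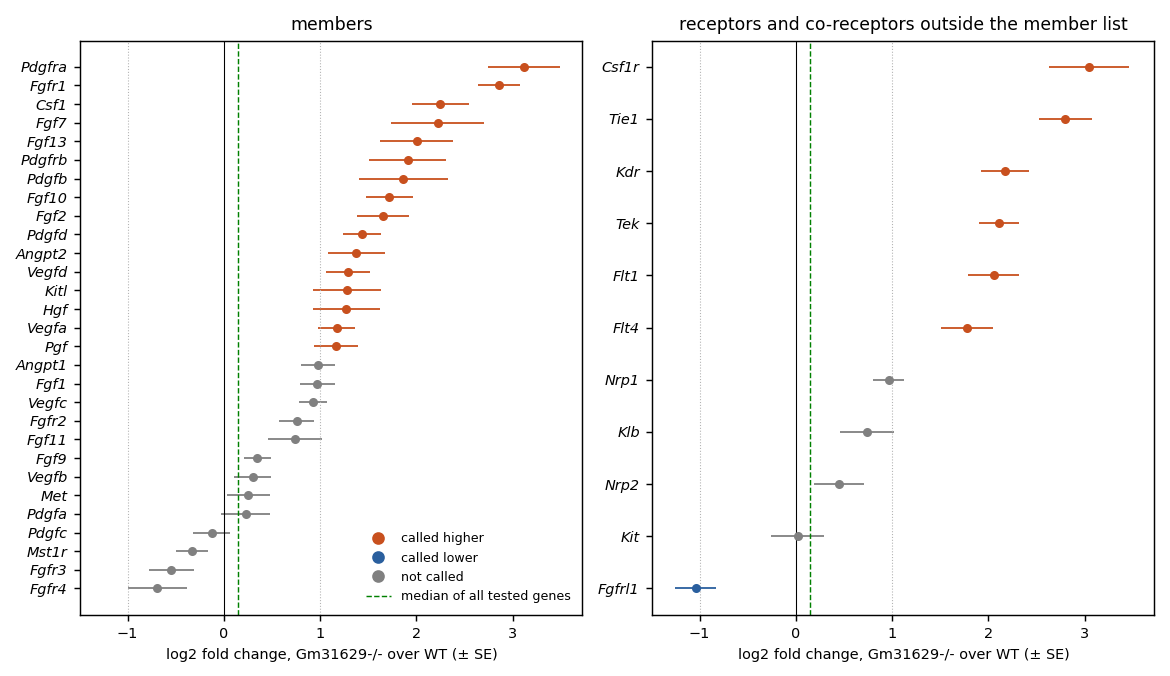
Log2 fold changes of Gm31629-/- over WT on the log2(FPKM + 1) scale with their SE from limma, for the 29 tested members (left) and 11 receptors and co-receptors outside the member list (right). Orange marks genes called higher and blue genes called lower, dotted lines are the limits at -1 and 1, and the dashed line is the median of all tested genes at 0.15. On this scale Pdgfra and Fgfr1 lead the members, and directions of many members turn under scaling to fibroblast markers.

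The receptors that answer the VEGFs, angiopoietins, Kitl and Csf1 are no members by symbol and were taken as a list of their own. Of 11 tested receptors and co-receptors outside the member list, 6 were called higher and 1 lower, beside 18.4% and 4.64% of all tested genes, with a median log2 fold change of 1.78 against 0.15. Csf1r, the Csf1 receptor of macrophages, was at 13.6, 48.1 and 18.0 FPKM in Gm31629-/- mice and 1.90, 2.14 and 1.67 FPKM in WT mice (log2 fold change 3.04 ± 0.42 SE, adjusted p = 0.00180). The 10 macrophage markers stood beside it at a summed 644.5 to 1426 FPKM in Gm31629-/- and 107 to 117 FPKM in WT mice, with 9 called higher. Il34, a second ligand of Csf1r, rose as well (4.40 ± 0.961 FPKM in WT and 18.5 ± 7.20 FPKM in Gm31629-/- mice, log2 fold change 1.79, adjusted p = 0.00436). The VEGF receptors Flt1 (log2 fold change 2.06, adjusted p = 0.00144), Kdr (2.17, 0.000931) and Flt4 (1.78, 0.00262) and the angiopoietin receptors Tek (2.11, 0.000554) and Tie1 (2.80, 0.000582) were each higher in every Gm31629-/- mouse than in any WT mouse. Their mean levels in WT colon were 0.186, 0.291, 0.194, 0.187 and 0.478 FPKM, and in Gm31629-/- colon 4.12, 5.02, 3.17, 4.15 and 9.57 FPKM. These genes are expressed mainly by endothelium, whose markers are given above. Lymphatic endothelial markers (2 of 3 tested) were at a summed 7.64 to 34.0 FPKM in Gm31629-/- and 0.730 to 1.55 FPKM in WT mice.

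Kit, the receptor of Kitl, was not called. It was at 7.57, 5.49 and 3.03 FPKM in Gm31629-/- mice and 4.69, 4.88 and 5.45 FPKM in WT mice. The values overlapped, with a log2 fold change of 0.02 ± 0.28 (SE, adjusted p = 0.963). Within the Gm31629-/- group Kit and Kitl were both highest in mouse 1 and lowest in mouse 3. Fgfrl1, a receptor-like FGF binder without a kinase domain, was the receptor called lower, at 3.52, 5.43 and 3.66 FPKM in Gm31629-/- mice and 7.68, 9.86 and 11.5 FPKM in WT mice (log2 fold change -1.04 ± 0.21 SE, adjusted p = 0.00794). The co-receptors Nrp1 (log2 fold change 0.96, adjusted p = 0.00397), Klb (0.74, adjusted p = 0.0682) and Nrp2 (0.45, adjusted p = 0.194) were not called.

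The Gm31629-/- mice differed among themselves, and the members fell into different orders. For 9 of the 16 called members, mouse 2 was highest and mouse 1 lowest (Fgf2, Fgf7, Hgf, Csf1, Pdgfb, Pdgfra, Pdgfrb, Pgf and Angpt2), an order held by 33.4% of all genes called higher. The sums of the fibroblast, blood endothelial and macrophage markers had that order too, at 297, 863 and 566 FPKM for fibroblasts, 127, 350 and 272 FPKM for blood endothelium and 644.5, 1426 and 742 FPKM for macrophages in mice 1 to 3. Kitl, Pdgfd and Vegfd were highest in mouse 1 and lowest in mouse 3, an order held by 21.3% of all genes called higher. Sums of the smooth muscle markers (2425, 1703 and 1483 FPKM) and of the lymphatic markers (34.0, 14.6 and 7.64 FPKM) had the same order as these members, and so did the sums of the neutrophil (225, 141 and 67.2 FPKM) and T cell markers (20.6, 18.3 and 11.5 FPKM). The pericyte sum (149, 172 and 73.3 FPKM) was highest in mouse 2 and lowest in mouse 3, as were the adipocyte and mesothelial sums, and did not have the order of Pdgfrb or Pdgfb. The B and plasma cell sum was highest in mouse 3 and lowest in mouse 2, an order no called member had. Vegfa was highest in mouse 1 and lowest in mouse 2, and Fgf10 was highest in mouse 3 and lowest in mouse 1. Fgfr1 and Fgf13 were highest in mouse 2 and lowest in mouse 3. These orders were held by 5.73%, 4.77% and 30.1% of all genes called higher, respectively. The sum of the epithelial markers (8369, 8754 and 9867 FPKM in mice 1 to 3) had the order of Fgf10. With 3 mice these orders are a description, and the part of cell composition in them was not tested.

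**Figure D3:**
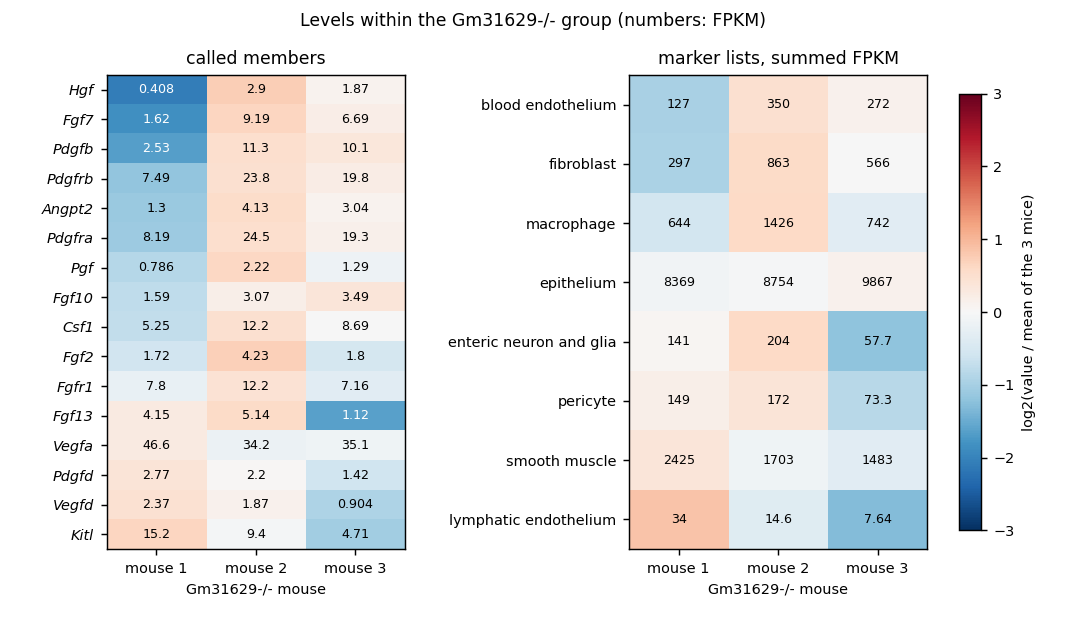
FPKM of the 16 called members (left) and summed FPKM of marker lists (right) in each of the 3 Gm31629-/- mice, with colour giving log2 of the value over the mean of the 3 mice. Hgf, Fgf7, Pdgfb, Pdgfra and Pdgfrb were lowest in mouse 1 as were the fibroblast, endothelial and macrophage sums, while Kitl and Vegfd were highest there as were the smooth muscle and lymphatic sums.

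Genes that free, activate or hold these ligands were taken as a further list, which also held the ligand Il34. Of 15 tested genes of the list, 3 (Plat, Sulf1 and Il34) were called higher and 2 (Fgfbp1 and Sulf2) lower, beside 18.4% and 4.64% of all tested genes, with a median log2 fold change of 0.01 against 0.15. The share called higher was thus near that of all genes. Plat, the tissue plasminogen activator, was at 6.64, 62.1 and 17.8 FPKM in Gm31629-/- mice and 0.502, 1.66 and 0.980 FPKM in WT mice (log2 fold change 3.39 ± 0.69 SE, adjusted p = 0.00799). The heparan sulfate sulfatases, which edit the sugar chains that FGFs bind, moved in opposite directions. Sulf1 had a log2 fold change of 2.49 (0.187 ± 0.0792 FPKM in WT and 6.42 ± 3.88 FPKM in Gm31629-/- mice, adjusted p = 0.00320). Sulf2 had one of -1.42 (22.6 ± 4.39 FPKM in WT and 8.16 ± 3.84 FPKM in Gm31629-/- mice, adjusted p = 0.00872). Fgfbp1, a carrier that releases FGFs from the matrix, was at 10.6, 5.22 and 8.03 FPKM in Gm31629-/- mice and 44.5, 36.0 and 51.5 FPKM in WT mice, the largest decrease in the list (log2 fold change -2.36 ± 0.25 SE, adjusted p = 0.000760).

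Inside the cell, the relay from adaptors through RAS, RAF, MEK and ERK and through PI3K showed few calls. Of 26 tested genes, 2 were called higher and 0 lower, beside the same 18.4% and 4.64%, with a median log2 fold change of 0.24 against 0.15 for all genes. Pik3ca, the catalytic subunit of PI3K, was called at 2.93 ± 0.373 FPKM in WT and 7.29 ± 1.02 FPKM in Gm31629-/- mice (SD, log2 fold change 1.07, adjusted p = 0.00283).

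Feedback inhibitors and transcription factors that ERK signalling induces were set beside the relay. Of 15 tested, 9 were called higher and 1 lower, beside the same 18.4% and 4.64%, with a median log2 fold change of 1.04. Spry4, a Sprouty inhibitor of receptor tyrosine kinase signalling, was at 3.21, 18.1 and 8.41 FPKM in Gm31629-/- mice and 1.06, 1.85 and 1.44 FPKM in WT mice (log2 fold change 1.91 ± 0.50 SE, adjusted p = 0.0200). Spry1, of the same family, was at 9.13, 11.6 and 9.93 FPKM in Gm31629-/- mice and 1.86, 2.69 and 2.86 FPKM in WT mice (log2 fold change 1.70 ± 0.18 SE, adjusted p = 0.000741). Ier3 followed at 59.4 ± 30.2 FPKM in Gm31629-/- and 21.1 ± 4.17 FPKM in WT mice (log2 fold change 1.35, adjusted p = 0.0184). Dusp5, Dusp6, Spred1, Spred3, Etv1 and Phlda1 made up the rest of those called higher. Etv5, an ETS factor of the same list, was lower, at 1.93, 4.49 and 2.91 FPKM in Gm31629-/- mice and 8.23, 5.69 and 9.80 FPKM in WT mice (log2 fold change -1.14 ± 0.28 SE, adjusted p = 0.0163). The 10 calls of this list dropped to 4 without Gm31629-/- mouse 2, without WT mouse 1 or without WT mouse 3, and to 6 after median-ratio scaling.

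Vegfa is a textbook target of the hypoxia response, so genes of that response were set beside it. Of 12 tested, 3 were called higher and 1 lower, beside 18.4% and 4.64% of all tested genes, with a median log2 fold change of 0.11 against 0.15. With so few genes, these counts do not set the list apart from all genes. Hif1a, the oxygen-regulated transcription factor, was at 35.7, 60.0 and 39.4 FPKM in Gm31629-/- mice and 14.3, 8.84 and 4.64 FPKM in WT mice (log2 fold change 2.25 ± 0.37 SE, adjusted p = 0.00360). Bnip3 had a log2 fold change of 1.24 (4.97 ± 0.555 FPKM in WT and 13.4 ± 3.89 FPKM in Gm31629-/- mice, adjusted p = 0.00404) and Adm, the vasodilator peptide adrenomedullin, one of 1.24 as well (adjusted p = 0.0119). Ndrg1 was lower (50.6 ± 21.1 FPKM in WT and 18.3 ± 9.71 FPKM in Gm31629-/- mice, log2 fold change -1.45, adjusted p = 0.0230). Without Gm31629-/- mouse 2, the 4 calls of this list dropped to 2.

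**Figure D4:**
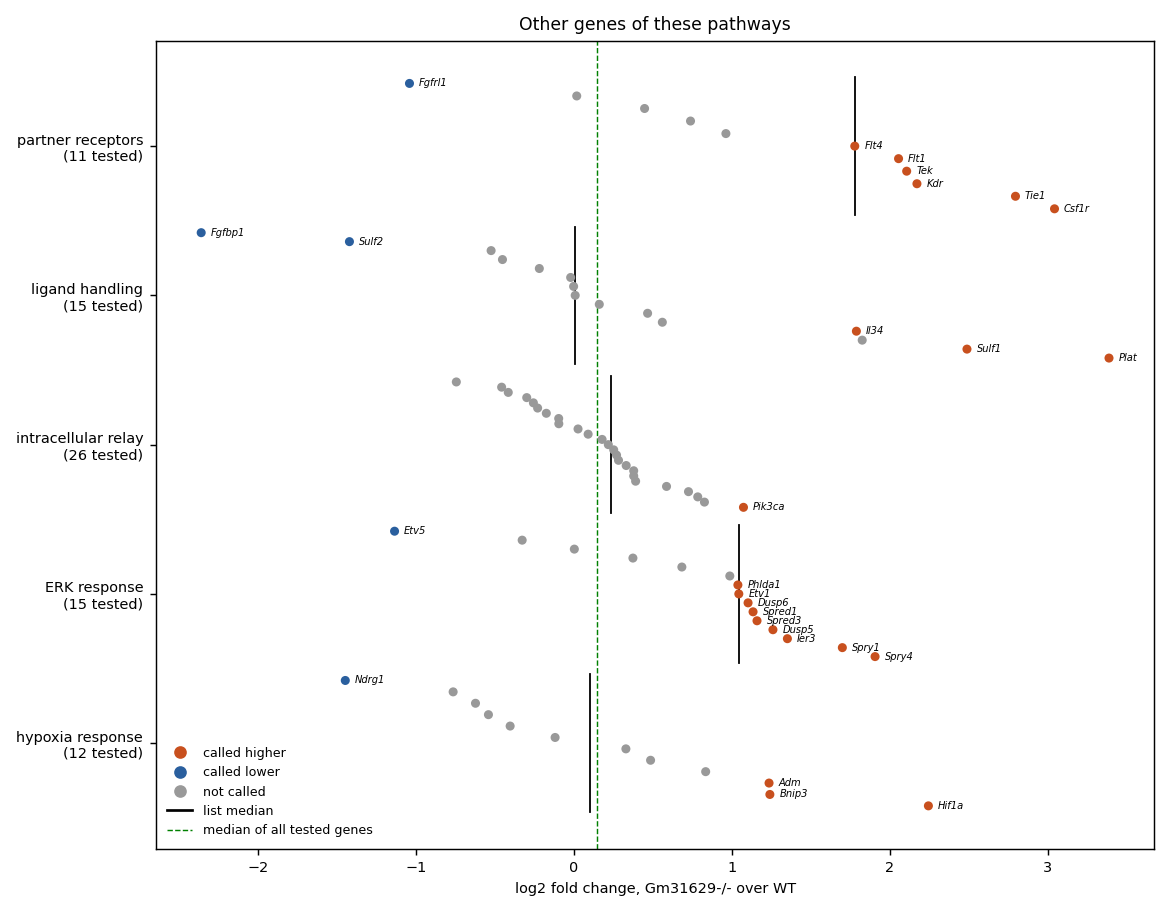
Log2 fold changes (Gm31629-/- over WT, on the log2(FPKM + 1) scale) of genes around the members, each point 1 gene (1 relay gene is not drawn), in orange where called higher, blue where called lower and grey where not called. Black lines are list medians, from 0.01 for ligand handling to 1.78 for partner receptors, and the dashed line is the median of all tested genes at 0.15.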

How the data were processed

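RNA-Seq values of distal colon from 3 Gm31629-/- and 3 WT mice were analysed. The authors deposited FPKM, that is fragments already scaled to exon length and to library depth, with each mouse in a column. The submitters' processing notes name HISAT2 2.1.0, HTSeq 0.6.0 and GRCm38. The study's DEGseq test needs counts and was not repeated. Symbols and exon lengths came from GENCODE M21 and matched 27488 identifiers. The size of 1 fragment gave each library's depth, and 96.3% to 97.3% of the low values (at most 20 fragments) came out within 0.1 of a whole number. A few genes, such as Angpt1, Pdgfb and Fgf1, did not, so their fragments are approximate. Strand was not given for the counting, so overlapping genes cannot be separated. A listed 0 leaves room for 3 fragments, for counting error only.

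The test was limma 3.58.1 under R 4.3.3, with its trended eBayes fit, applied to log2(FPKM + 1) of the 14657 genes whose mean reached 0.5 FPKM, and p was adjusted by Benjamini-Hochberg across them. Fold changes on this scale understate those of low genes. Folds of mean FPKM are therefore given too for called members and Vegfc, except where WT mice held 3 fragments or fewer in all. The fitting was tested on simulated data. The labels do not say whether mice shared a litter or cage. Replicates were given as separate mice, and if the RNA was pooled, p-values would measure technical spread.

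Members and gene lists were chosen with earlier results of these data known. Values per mouse are printed for members called or with a mean of at least 5 FPKM in either group, the others by fold change or range. In each pathway list up to 3 called genes are named per direction, by size of change, and the VEGF, angiopoietin, Kitl and Csf1 receptors always. Some items of these lists are not reported here. As alternatives, the pseudocount was 0.1, the filter was dropped or raised to 5 FPKM, and the fit used TPM scaling, median-ratio scaling, scaling to epithelial or fibroblast markers, eBayes without a trend, voom on recovered fragments, a replicate block, other call rules and leaving out each mouse. Promoter sequences came from RefSeq (GRCm38.p6).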

Additional observations from a re-analysis of the deposited data

How the results depend on the processing

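Scaling to fibroblast markers changed the results most: all tested genes called higher became 148 and lower 12164, members called higher 0 and lower 16, and calls became 4 for partner receptors, 12 for ligand handling, 26 for the relay and 12 for hypoxia. Log2 fold changes that turned under it were -0.74 for Angpt2, -0.79 for Csf1, -2.43 for Fgf1, -1.08 for Fgf9, -1.88 for Fgf11, -2.71 for Fgfr2, -2.13 for Fgfr1op, -3.33 for Fgfr1op2, -2.12 for Kitl, -3.30 for Met, -3.72 for Pdgfa, -1.16 for Pdgfb, -0.11 for Pdgfd, -0.067 for Pdgfra, -1.72 for Pdgfrb, -2.80 for Vegfa, -3.34 for Vegfb and -1.73 for Vegfc. This scaling divides by markers that differ between the groups. Scaling to epithelial markers gave 4635 genes called higher and 236 lower, 6 relay calls, and log2 fold changes of 0.30 for Mst1r and 0.29 for Pdgfc. Of all calls, 79.9% were higher, against 70.6% under median-ratio scaling, 66.0% at a mean of at least 5 FPKM, 95.2% under epithelial and 1.20% under fibroblast scaling. Median-ratio scaling gave 1 relay call and 6 ERK response calls, and the relay gave 4 calls with a pseudocount of 0.1 and 4 with voom. With that pseudocount, 19 members and 3700 of all tested genes were called higher, and with voom 20 and 3644. Fgf1, Angpt1 and Vegfc, not called in the main fit, were called higher in both. With a mean of at least 5 FPKM, 11 members were tested and 4 called higher. Of the 7242 genes tested there, 956 were called higher, with 3 partner receptor calls, since fewer genes were tested. Without a fold limit, 4238 genes were called higher and 2138 lower. Members called lower stayed at 0 by limma under every alternative but fibroblast scaling, voom and unadjusted p included. Leaving out 1 mouse gave 13 to 16 members called higher, 2285 to 2892 genes called higher, 4 to 10 ERK response calls and 2 to 4 hypoxia calls, and -0.28 to 0.010 for Pdgfc. Deviations of mice with the same number correlated at 0.036, -0.108 and 0.014, beside -0.133 to 0.116 for mice with different numbers. Not every mouse correlated best with its own number, so these values show no pairing by number. Whether mice shared a litter or cage was not tested. With a replicate block, 16 members and 2709 of all tested genes were called higher, and 9 ERK response genes were called. Depth limits the members with few WT fragments, and 3 mice per group limit all tests.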

Other observations

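Markers of other cell types of the colon were also followed. Neutrophil markers were at a summed 67.2 to 225 FPKM in Gm31629-/- mice and 3.71 to 6.50 FPKM in WT mice, with 6 of 6 called higher by limma. B and plasma cell markers were at 232 to 419 and 14.6 to 21.5 FPKM, with 6 of 6 called higher, and T cell markers at 11.5 to 20.6 and 4.73 to 6.85 FPKM, with 2 of 6 called higher. Adipocyte markers were at 140 to 503 and 13.5 to 56.5 FPKM, with 4 of 5 tested called higher, and mesothelial markers at 3.04 to 36.4 and 0.552 to 1.08 FPKM, with 2 of 2 tested called higher.

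Within the smooth muscle list, Tagln, a gene usually abundant in that tissue, was listed at a mean of 1.34 FPKM in Gm31629-/- and 0.320 FPKM in WT mice and was not called, while Acta2 was at a mean of 558 and 8.25 FPKM. The listed value of Tagln was not examined further.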
